A study of Mus musculus with 24 samples.

Results

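Inguinal white adipose tissue (iWAT) of Mrs2 knockout mice after a Western diet (KO WD) was compared with iWAT of wild type mice on chow (WT chow), to ask what separates diet-stressed mutant fat from unstressed normal fat. The comparison took 6 of the 24 libraries of the series, 3 for each group, each from 1 mouse according to the design text. It was made over the 14685 of 54532 genes whose level averaged at least 0.5 FPKM (fragments per kilobase of gene, scaled to library depth) over the 12 iWAT libraries. The other 6 of these 12 libraries, knockout on chow (KO chow) and wild type on Western diet (WT WD), entered the same model and serve below to place the 2 groups. Mice were 13 weeks old when the diets began and stayed on them for 52 weeks. RNA came from 100 mg of powdered whole depot without its lymph nodes. The labels name the genotypes only as WT and Mrs2 KO, and give neither the allele, the strain nor the sex. Genotype and diet both differ between the groups, so their parts in any difference given here cannot be told apart from this contrast alone.

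Mrs2 forms a magnesium channel of the inner mitochondrial membrane. White adipocytes store triglyceride in a single large droplet and hold few mitochondria, whereas beige and brown adipocytes burn fatty acids and dissipate the energy as heat through Ucp1, the uncoupling protein of the same membrane. The inguinal depot is a site at which beige adipocytes readily arise, and its fuel burning draws on pyruvate entry, the tricarboxylic acid (TCA) cycle, beta-oxidation and the respiratory chain, whose complexes are built from subunits encoded in the nucleus and in mitochondrial DNA.

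After Western diet, knockout fat held more RNA of many thermogenic and mitochondrial fuel-burning genes than chow-fed wild type fat. It held less of a smaller set, which includes Plppr3 and Smkr-ps. Falls of 2 cytochrome P450 genes, the granule protease Prtn3 and the complement factor Cfd were less steady when 1 library was left out. By limma on log2(FPKM + 1), 516 genes (3.51% of those tested) passed an adjusted p under 0.05, which is what "called" means below. Of these, 421 were higher in KO WD (2.87% of the genes tested) and 95 were lower (0.647%). The change was at least 2-fold, a log2 fold change of 1 or more, for 132 of the higher and 25 of the lower genes. The median log2 fold change over all genes tested was -0.02. In 1872 genes (12.7%) all 3 KO WD libraries lay above all 3 WT chow libraries, and in 1385 (9.43%) all lay below. Among the 516 genes, 458 were protein coding. The count depended on single libraries: it was 43 without KO WD replicate 1, 113 without KO WD replicate 2, 84 without WT chow replicate 3, 125 without WT chow replicate 2 and 333 without WT chow replicate 1. Fitted on the 6 libraries alone, without the spread of the other 6, it was 7.

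**Figure D1:**
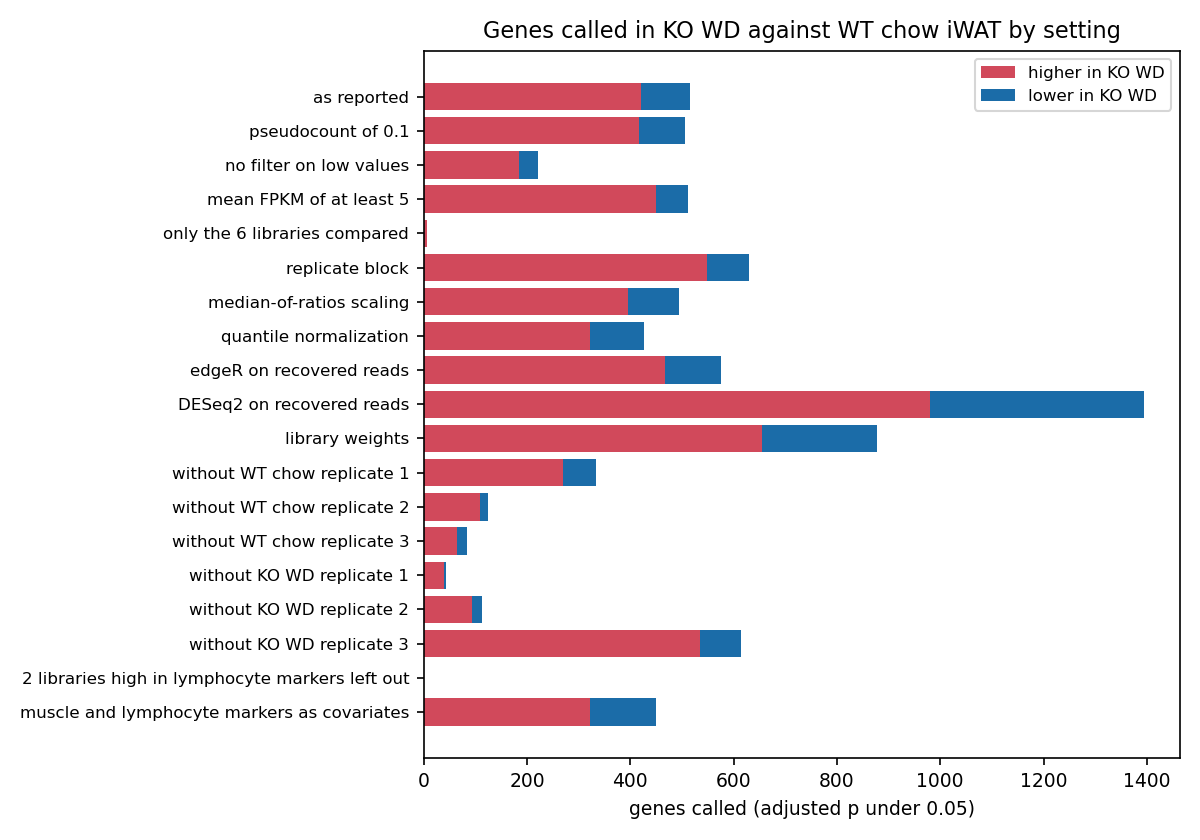
Number of genes called in KO WD against WT chow (horizontal axis, adjusted p under 0.05) under each setting of the analysis, with genes higher in KO WD in red and genes lower in blue. The bars run from 0 with the 2 libraries high in lymphocyte markers left out to 1394 by DESeq2, and without 1 library from 43 to 615.

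The libraries were of like depth, 16189282 to 16955729 recovered reads in WT chow and 15358324 to 18393793 in KO WD. All 7 adipocyte marker genes were present in every library, with a summed level of 9191 to 14912 FPKM in WT chow and 7691 to 8644 FPKM in KO WD. Cfd, given below as called lower, is 1 of the 7 and made up most of the WT chow sums. The mean log2 level of the 7 overlapped between the groups, at 9.10 to 9.69 in WT chow and 9.18 to 9.38 in KO WD. The 15 skeletal muscle markers summed to 33.5 to 175 FPKM in WT chow and to 29.3, 49.1 and 1443 FPKM in KO WD, where replicate 1 was the high one. The 15 lymphocyte markers summed to 506 to 1001 FPKM in WT chow and to 237 to 753 FPKM in KO WD. As a mean on the log2 scale they were highest in replicate 3 of WT chow (4.78) and replicate 2 of KO WD (3.90), against 1.4 to 2.99 in the other 4 libraries. With both of these libraries left out, limma called 0 genes (1911 at an unadjusted p under 0.05, smallest adjusted p 0.0657), edgeR called 1 and DESeq2 called 578. With the muscle and lymphocyte levels as covariates, 449 genes were called. Both of these fits were chosen after seeing the data. In bulk tissue, fewer cells of a type and less RNA per cell cannot be told apart.

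**Figure D2:**
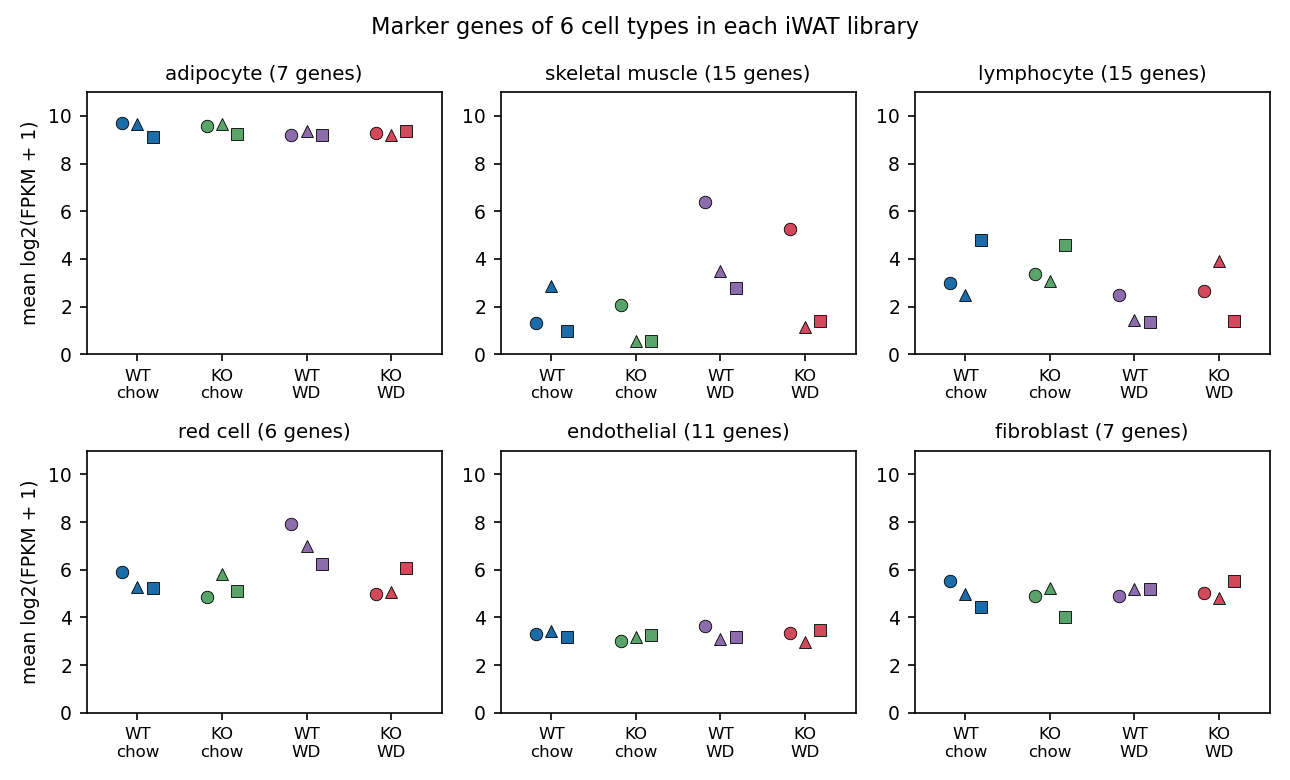
Mean log2(FPKM + 1) of the marker genes of 6 cell types (vertical axis) in the 12 iWAT libraries, with circles, triangles and squares for replicates 1, 2 and 3 of each group. Adipocyte markers stay between 9.10 and 9.69 in WT chow and between 9.18 and 9.38 in KO WD, while muscle markers reach 5.26 in KO WD replicate 1 and lymphocyte markers 4.78 in WT chow replicate 3.

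Mrs2 itself fell in the knockout. The gene (ENSMUSG00000021339) lies on the minus strand of chromosome 13, from 24987483 to 25020379 in mm10. The 3 chow-fed wild types had 4.48, 4.67 and 3.87 FPKM, the 3 knockouts on Western diet 1.95, 1.68 and 1.60. The groups did not overlap, and the log2 fold change was -0.96 ± 0.16 (SE, n = 3 per group; limma adjusted p = 0.0176). Some RNA of the gene was thus counted in every knockout library. Of its exonic bases, 32.4% are shared with Gpld1 on the opposite strand, so the level counted as Mrs2 can include reads of that gene. Leaving out 1 library at a time kept the call in 2 of 6 fits, with adjusted p up to 0.0698.

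Magnesium carriers other than Mrs2 did not pass the test. Of 20 genes on the magnesium transport list, 15 were expressed enough to be tested, and Mrs2 was the single one called. Mmgt1, a magnesium transporter of internal membranes, stood at 0.45 ± 0.12 on the log2 scale (adjusted p = 0.0678), the exchanger Slc41a2 at 0.34 ± 0.12 (0.164) and the plasma membrane channel kinase Trpm7 at -0.20 ± 0.10 (0.334). The median of the 15 was 0.03. Among 12 tested genes of mitochondrial calcium handling, 3 rose and 0 fell. They were Letm1, a cation exchanger of the inner membrane (6.67, 5.80 and 5.53 FPKM against 17.9, 19.3 and 12.2; 1.30 ± 0.15, adjusted p = 0.00739), Ghitm (1.08 ± 0.22, 0.0320) and Smdt1, a subunit of the calcium uniporter (0.46 ± 0.11, 0.0488). Of the 6 fits that left out 1 library, Letm1 was called in all 6, Ghitm in 2 and Smdt1 in 1.

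The thermogenic adipocyte list showed the largest median change of the 27 pathway lists. Of its 30 genes, 26 were tested, and Zic1, Tmem26, Esrrg and Bmp8b fell under the level filter. Of the 26, 15 rose and 0 fell, with a median log2 fold change of 1.92, and 24 lay above 0. Ucp1 (mm10 chromosome 8, 83290352 to 83298452) was almost absent from chow-fed wild type fat, at 0.0270, 0.568 and 0.0710 FPKM, that is 1, 21 and 3 reads. In KO WD it stood at 651, 699 and 129 FPKM, or 20519, 23447 and 4817 reads. Every KO WD library lay far above every WT chow library, replicate 3 being the lowest of its group. On the log2(FPKM + 1) scale the change was 8.34 ± 1.11 (adjusted p = 0.00971), with a 95% confidence interval of 5.86 to 10.82, and the pseudocount of 1 understates it.

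Lipid handling genes of thermogenic fat were called higher beside Ucp1. Fabp3, a fatty acid carrier of oxidative tissues, went from 0.322, 1.02 and 0.188 to 618, 537 and 50.4 FPKM (7.45 ± 1.03, adjusted p = 0.0109). Elovl3, a fatty acid elongase typical of brown fat, went from 0.0887, 0.385 and 0.155 to 86.6, 119 and 13.1 FPKM (5.46 ± 0.74, 0.00971). In both genes KO WD replicate 3 held the smallest rise and still exceeded all chow-fed wild types. Plin5, which ties lipid droplets to mitochondria, went from 6.33, 8.47 and 4.64 to 59.8, 56.5 and 34.0 FPKM (2.76 ± 0.31, 0.00739). The glycerol kinase Gk, which lets adipocytes reuse glycerol, had 0.873, 0.845 and 0.830 FPKM in WT chow and 21.7, 18.5 and 4.96 in KO WD (2.90 ± 0.41, 0.0109). Cidea, a lipid droplet protein abundant in beige cells, had 26.5, 45.4 and 28.2 FPKM and then 437, 351 and 106 (2.93 ± 0.61, 0.0328), and the acyl-CoA thioesterase Acot11 rose by 2.84 ± 0.55 (0.0260), with 20.9% of its exonic bases shared with the opposite strand's Fam151a. Plin5 and Gk were called in all 6 fits that left out 1 library, and Ucp1, Fabp3 and Elovl3 in 5. Cidea and Acot11 were called in 1 of these fits.

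Channels, enzymes and respiratory isoforms of the same list were called higher too. Otop1, a proton channel found in brown fat, had similar levels within each group, at 2.77, 3.40 and 3.17 FPKM in WT chow against 30.8, 31.0 and 26.9 in KO WD (2.89 ± 0.37, adjusted p = 0.00944), and was called in all 6 fits that left out 1 library. Cox7a1, the cytochrome oxidase subunit of muscle and brown fat, went from 3.72, 4.71 and 3.54 to 117, 139 and 31.1 FPKM (4.03 ± 0.72, 0.0195). Kcnk3, a potassium channel of brown fat, went from 9.10, 8.43 and 8.64 to 41.2, 33.9 and 26.2 FPKM (1.82 ± 0.22, 0.00739). Of the fits that left out 1 library, Kcnk3 was called in all 6 and Cox7a1 in 2. Dio2, the deiodinase that makes active thyroid hormone, rose by 1.57 ± 0.26 (0.0161), Cpt1b, the muscle-type carnitine transferase, by 1.08 ± 0.18 (0.0171), Letmd1 by 1.59 ± 0.37 (0.0474) and the coactivator Ppargc1b by 0.98 ± 0.21 (0.0372).

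Other than Ppargc1b, the regulators of the thermogenic program given here did not pass the test. The coactivator Ppargc1a stood at 0.62 ± 0.21 (adjusted p = 0.153), the fate regulators Prdm16 at 0.31 ± 0.23 (0.531) and Ebf2 at 0.14 ± 0.25 (0.810), the nuclear receptor Esrra at 0.30 ± 0.16 (0.363), and the beta-3 adrenergic receptor Adrb3 at -0.04 ± 0.28 (0.959). Ppara, the receptor that governs fatty acid burning, narrowly missed the threshold at 1.62 ± 0.39 (0.0524). Of the genes for creatine and calcium cycling, other routes of heat production, 0 of 8 tested were called, with a median of 0.34. The count of 15 thermogenic genes was 5 without KO WD replicate 1, 8 without KO WD replicate 2, WT chow replicate 2 or WT chow replicate 3, 11 without WT chow replicate 1 and 18 without KO WD replicate 3. It was 14 with the muscle and lymphocyte covariates, and the list's median stayed between 1.56 and 2.31 when 1 library was left out.

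**Figure D3:**
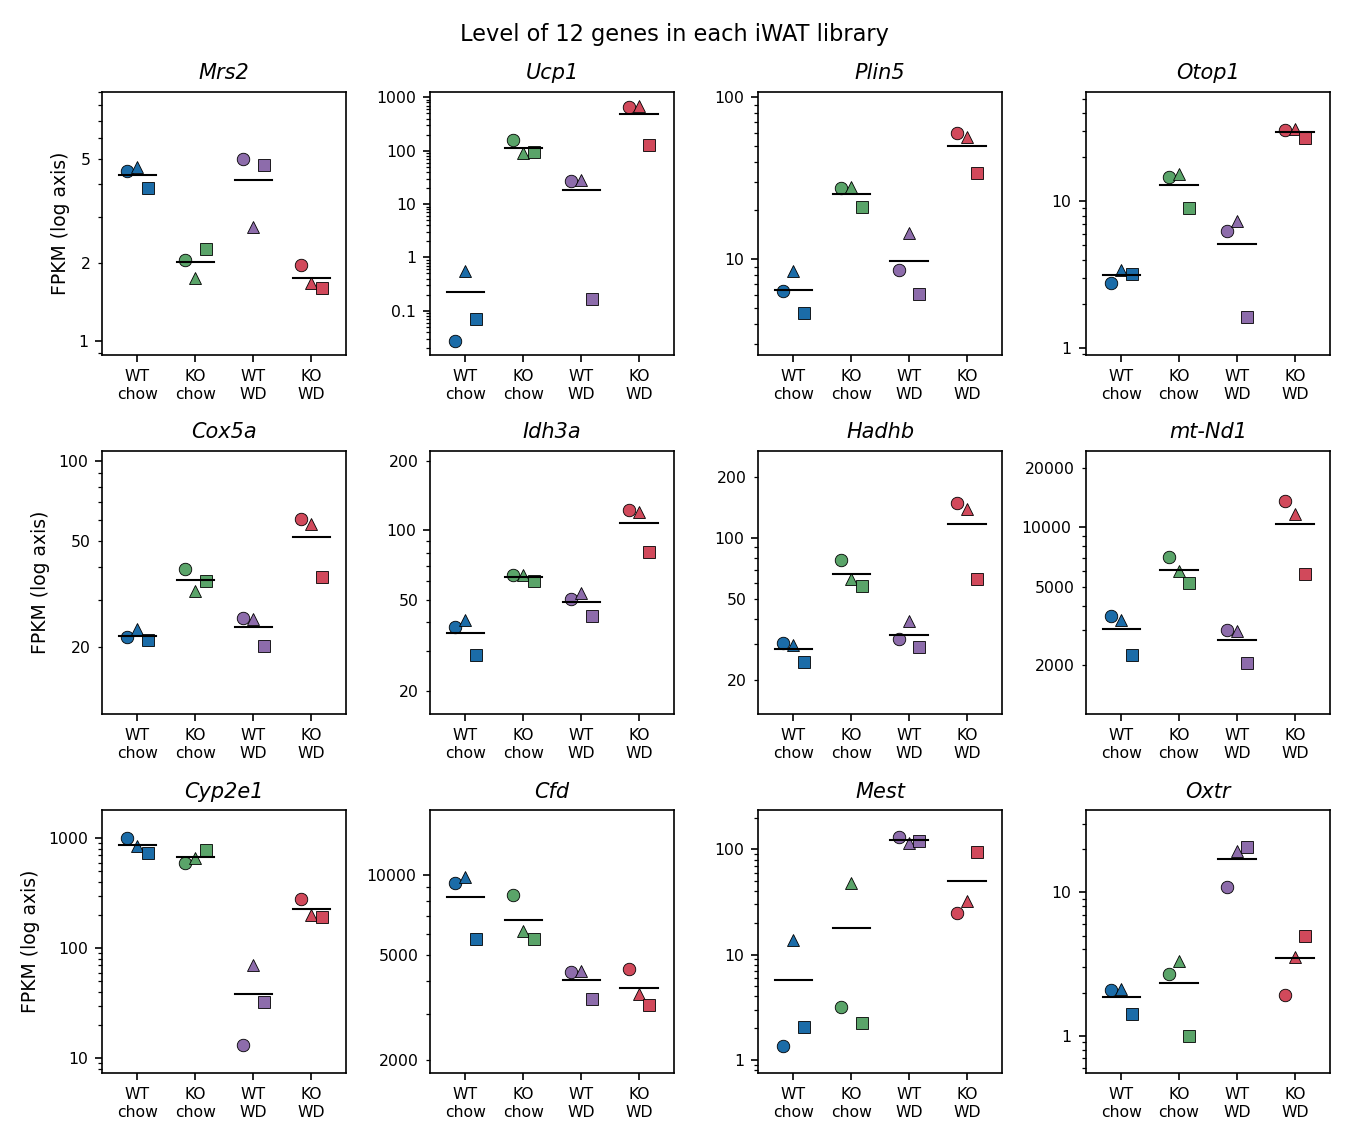
Level of 12 genes in FPKM (vertical log axis, its range set per gene) in the 12 iWAT libraries by group, with circles, triangles and squares for replicates 1, 2 and 3 and a bar at the group mean. Ucp1 runs from 0.0270 FPKM in a WT chow library (replicate 1) to 699 FPKM in a KO WD library (replicate 2), and in Ucp1, Plin5, Cox5a, Hadhb and mt-Nd1 KO WD replicate 3 is the lowest of its group.

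Genes that bring fuel into the TCA cycle and genes that turn it over were among those called higher. Of 27 tested, 15 rose, 0 fell and 12 did not pass, with a median log2 fold change of 1.01. Idh3a, the catalytic subunit of the NAD-linked isocitrate dehydrogenase, had 38.2, 40.6 and 28.8 FPKM in WT chow and 122, 119.8 and 80.6 in KO WD (1.55 ± 0.18, adjusted p = 0.00739). Mpc2, part of the carrier that admits pyruvate, had 14.4, 14.7 and 14.2 FPKM against 32.1, 33.8 and 25.6 (1.02 ± 0.12, 0.00739). Citrate synthase Cs (1.22 ± 0.20), Ogdh (1.23 ± 0.22), Sucla2 (1.49 ± 0.24), Suclg1 (1.35 ± 0.24), Fh1 (0.91 ± 0.19) and Mdh2 (1.06 ± 0.18) were called higher as well. Of succinate dehydrogenase, Sdhc (0.64 ± 0.12, 0.0217) and Sdhd (0.95 ± 0.18, 0.0228) were called, while Sdha and Sdhb stood at 0.80 ± 0.20 (0.0576) and 0.85 ± 0.25 (0.0954). Pdk4, which restrains pyruvate dehydrogenase and so spares glucose, rose most, from 20.8, 23.7 and 6.24 to 268, 109.6 and 100.0 FPKM (3.20 ± 0.49, 0.0135), while Pdk1 stood at -0.30 ± 0.16 (0.386). Idh3a and Mpc2 were called in all 6 fits that left out 1 library, but the count of 15 was 2, 3, 6, 4, 10 and 22 without KO WD replicate 1, KO WD replicate 2, WT chow replicate 2, WT chow replicate 3, WT chow replicate 1 and KO WD replicate 3.

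Beta-oxidation genes were called higher from the entry of fatty acids into mitochondria to the last step of their breakdown. Of 29 listed, 28 were tested (Bdh1 fell under the filter), 15 rose, 0 fell, and the median was 1.0. At entry, Cpt1a (1.01 ± 0.19), Cpt2 (1.09 ± 0.20) and the carnitine carrier Slc25a20 were called higher, the last going from 13.1, 12.9 and 9.13 to 53.8, 50.1 and 24.5 FPKM (1.72 ± 0.26, adjusted p = 0.0130). Within the spiral, Hadhb, the thiolase subunit of the trifunctional protein, had 30.5, 29.9 and 24.6 FPKM in WT chow and 149, 139.6 and 62.7 in KO WD (1.92 ± 0.29, 0.0130). Its partner Hadha, a neighbour on chromosome 5, had 27.7, 28.9 and 24.1 FPKM and then 120.0, 113 and 50.8 (1.68 ± 0.28, 0.0161). The dehydrogenases Acadvl (1.75 ± 0.32), Acadm (1.19 ± 0.22) and Acads (0.95 ± 0.18) rose, and Acadl stood at 0.99 ± 0.24 (0.0525). Etfdh, which hands their electrons to ubiquinone, went from 12.6, 11.4 and 8.36 to 45.5, 42.1 and 23.3 FPKM (1.65 ± 0.23, 0.0113). The count of 15 was 0 without KO WD replicate 1, 3 without KO WD replicate 2, 1 without WT chow replicate 3, 4 without WT chow replicate 2, 9 without WT chow replicate 1 and 20 without KO WD replicate 3, with medians of 0.90 to 1.22 over these 6 fits.

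Respiratory chain subunits were called in part, and their list medians were lower than those of the TCA and beta-oxidation lists. Of 36 nuclear subunits of complex I, 13 rose, 0 fell and all 36 lay above 0, with a median of 0.58. Of 39 nuclear subunits of complexes II to V, cytochrome c included, 16 rose, 0 fell and 38 lay above 0, with a median of 0.68. Ndufa8 of complex I had 61.1, 63.4 and 56.4 FPKM in WT chow and 113, 113 and 89.4 in KO WD (0.78 ± 0.13, adjusted p = 0.0151). Cytochrome c, Cycs, had 26.1, 23.4 and 21.5 FPKM against 83.1, 81.2 and 44.9 (1.47 ± 0.23, 0.0135). Cox5a of complex IV went from 21.8, 23.4 and 21.2 to 60.5, 58.0 and 36.6 FPKM (1.15 ± 0.18, 0.0135), and Uqcrc1 of complex III from 43.0, 48.4 and 38.1 to 117, 127 and 67.5 (1.2 ± 0.22, 0.0208). Subunits of the ATP synthase ranged from Atp5b, a catalytic subunit, at 0.99 ± 0.20 (0.0273) to Atp5g1, a ring subunit, at -0.45 ± 0.33 (0.531). Counts of called subunits were 0 in both lists without KO WD replicate 1, KO WD replicate 2 or WT chow replicate 3, they were 1 and 3 without WT chow replicate 2, 6 and 6 without WT chow replicate 1, and 22 and 25 without KO WD replicate 3. The medians over these 6 fits were 0.51 to 0.70 and 0.60 to 0.82. Under quantile normalization 5 and 8 subunits were called, and without the level filter 2 and 4.

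The 13 protein-coding genes of mitochondrial DNA all lay above 0, with a median of 1.41, but 2 were called. mt-Nd2 had 2195, 2048 and 1358 FPKM in WT chow and 7979, 6865 and 3924 in KO WD (1.71 ± 0.30, adjusted p = 0.0190), and mt-Nd1 rose by 1.70 ± 0.34 (0.0264). Cytochrome b, mt-Cytb, stood at 1.16 ± 0.30 (0.0665). All mitochondrially encoded genes together took 3.54% to 4.63% of the reads in WT chow and 5.27% to 11.6% in KO WD, without overlap, the lowest KO WD share being that of replicate 3. DESeq2 on the recovered reads called 12 of the 13 higher. Leaving out KO WD replicate 3 also gave 12, and leaving out KO WD replicate 1, KO WD replicate 2, WT chow replicate 2 or WT chow replicate 3 gave 0. Transfer RNAs of the mitochondrion were counted too: mt-Tl1 had 13.6, 11.2 and 11.9 FPKM against 212, 195 and 51.9 (3.31 ± 0.47, 0.0115), and mt-Tw rose by 2.75 ± 0.40 (0.0118) and mt-Te by 2.81 ± 0.57 (0.0302). Libraries were captured on poly-T, so such short transcripts entered them only as far as they carried a tail or lay on unprocessed RNA.

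Many nuclear genes for mitochondrial proteins carry the binding element of nuclear respiratory factor 1 near their start, and the windows below show that element, in capitals, in 3 respiratory genes that were called higher. Each is the 150 bases directly before the RefSeq start on the gene's strand, 5′ to 3′, from RefSeq on GRCm38.p6: Etfdh at chr3:79628768-79628917 (minus), Ndufa8 at chr2:36049339-36049488 (minus) and Sdhd, which anchors complex II, at chr9:50603850-50603999 (minus).
Etfdh: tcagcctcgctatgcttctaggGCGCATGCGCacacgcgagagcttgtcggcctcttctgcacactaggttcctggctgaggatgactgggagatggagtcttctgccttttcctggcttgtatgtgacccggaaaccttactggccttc
Ndufa8: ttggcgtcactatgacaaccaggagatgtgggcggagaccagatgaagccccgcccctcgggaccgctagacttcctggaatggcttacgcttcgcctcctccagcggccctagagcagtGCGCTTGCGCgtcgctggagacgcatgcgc
Sdhd: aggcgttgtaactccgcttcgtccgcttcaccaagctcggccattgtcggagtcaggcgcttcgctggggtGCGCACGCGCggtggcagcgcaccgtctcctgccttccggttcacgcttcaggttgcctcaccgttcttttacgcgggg
The search took GCGCA, any base and GCGC as this element, on both strands of the RefSeq promoter windows, which run from 250 bases before to 50 after the start. Among nuclear genes of the respiratory, TCA and beta-oxidation lists, 47 of the 59 called higher and 59 of the 69 not called had a window in the RefSeq table, and 10 (21.3%) and 12 (20.3%) of these held the element, beside 11.2% of the 10032 tested genes with a window and 5.19% of all 27025 promoters. The element of the estrogen-related receptors, TCAAGGTCA, was in 1 of the 47 called higher (2.13%) and 1 of the 59 not called (1.69%). It was in 0.319% of the tested genes with a window and 0.466% of all promoters. A match is a run of letters and no evidence of binding.

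Some glycolytic genes were called higher too. On the list of HIF1A targets and glycolysis, 7 of 22 tested rose and 0 fell, with a median of 0.53, and the 7 are all glycolytic enzymes. Pgam1 went from 49.0, 48.3 and 38.7 to 152, 148 and 92.1 FPKM (1.48 ± 0.21, adjusted p = 0.0109), Pgk1 from 40, 40.3 and 40.3 to 133, 130.5 and 72.8 (1.4 ± 0.22, 0.0149). The phosphofructokinases Pfkl (1.66 ± 0.31, 0.0218) and Pfkp (0.76 ± 0.13, 0.0172), Pkm, Gpi1 and Hk1 made up the rest. Hif1a stood at 0.18 ± 0.12 (0.469), and its targets Vegfa at -0.16 ± 0.22 (0.742) and Bnip3 at -0.13 ± 0.15 (0.702). The count of 7 was 0 without KO WD replicate 1, 3 without WT chow replicate 1, 7 without KO WD replicate 3 and 1 without KO WD replicate 2, WT chow replicate 2 or WT chow replicate 3. KO WD replicate 1 is the library with the high muscle level, and muscle also expresses glycolytic and oxidative genes. With the muscle and lymphocyte covariates the count was 5, and 14, 11, 10, 13 and 12 genes were called on the thermogenic, complex I, complexes II to V, TCA and beta-oxidation lists.

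**Figure D4:**
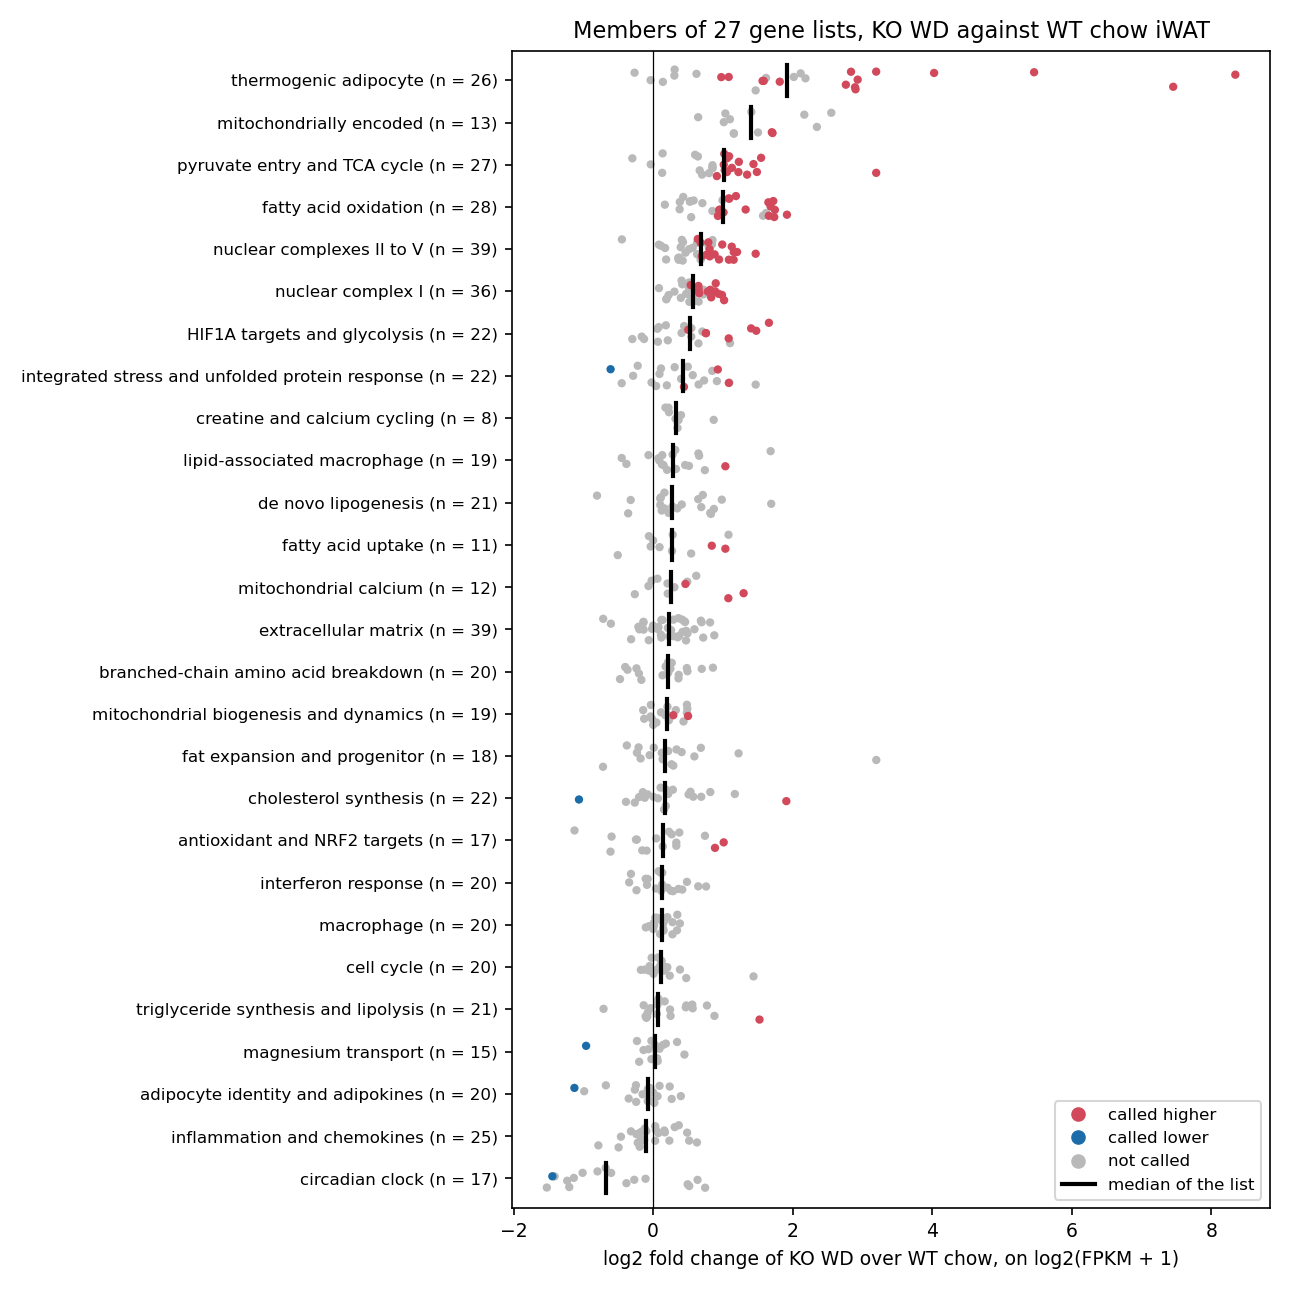
Log2 fold change of KO WD over WT chow (horizontal axis, on log2(FPKM + 1)) of every tested member of the 27 pathway lists, with called genes in colour and a bar at each list's median. The thermogenic list reaches 8.34 with a median of 1.92, the lists from the TCA cycle to complex I hold called genes on the right side alone, and the clock list has the lowest median, -0.68.

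Few genes of fat storage were called. None of 21 genes of de novo lipogenesis was called by limma, though 18 lay above 0 (median 0.28). The highest was Scd2, a fatty acid desaturase, at 1.69 ± 0.52 (adjusted p = 0.108), and the lowest Fads1, which makes polyunsaturated fatty acids, at -0.80 ± 0.19 (0.0511). Of 21 genes of triglyceride synthesis and lipolysis, the droplet coat gene Plin2 alone was called, at 103, 88.4 and 69.3 FPKM in WT chow against 282, 264 and 206 in KO WD (1.53 ± 0.26, 0.0182). Of 11 genes of fatty acid uptake, 2 rose: Fabp5 (1.04 ± 0.16, 0.0130), a carrier also listed for lipid-associated macrophages, and the lipoprotein receptor Vldlr (0.84 ± 0.17, 0.0314). In cholesterol synthesis, 1 of 22 rose and 1 fell. Hmgcs1, an early enzyme of the pathway, went from 28.7, 22.1 and 13.0 to 92.1, 54.0 and 98.3 FPKM (1.91 ± 0.32, 0.0161), while Fdft1, which commits intermediates to sterols, went from 12.4, 21.3 and 16.6 down to 6.50, 9.0 and 6.68 (-1.06 ± 0.18, 0.0161), with 18.3% of its exonic bases shared with Ctsb on the other strand. Of the 6 fits that left out 1 library, Fabp5 was called in 5, Fdft1 in 4, Hmgcs1 in 3, Plin2 in 2 and Vldlr in 1.

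Defining genes of adipocytes were highly expressed in both groups. Of 20 genes of adipocyte identity and adipokines, Cfd (adipsin) alone was called. It had 9378, 9817 and 5742 FPKM in WT chow and 4418, 3556 and 3225 in KO WD, a non-overlapping fall of 1.13 on the log2 scale (SE 0.26, adjusted p = 0.0461). Adiponectin, Adipoq, had 1458, 1342 and 826 FPKM against 892, 866 and 1216 (-0.26 ± 0.24, 0.623), and leptin, Lep, 165, 240.0 and 94.3 against 132, 137 and 339.6 (0.24 ± 0.52, 0.844). Both overlapped between the groups. The master regulator Pparg stood at -0.25 ± 0.24 (0.651). The Cfd call was kept in 1 of 6 fits that left out 1 library (adjusted p up to 0.129).

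Among called genes named by the rule, the largest falls were of 2 cytochrome P450 genes, while Cyp2u1 of the same family rose by 0.58 ± 0.11 (adjusted p = 0.0229). Some immunoglobulin segments had lower values without passing the test, down to -5.08 for Igkv3-2 (0.0797); it and Cyp2u1 were chosen after their values were seen. Cyp2f2 had 117, 82.8 and 35.1 FPKM in WT chow and 8.79, 8.81 and 7.52 in KO WD (-2.92 ± 0.57, adjusted p = 0.0259). Of its exonic bases, 13.5% are shared with Gm15883 on the opposite strand. Cyp2e1, which oxidises ethanol and ketones, had 1006, 853 and 742 FPKM against 282, 203 and 192 (-1.95 ± 0.46, 0.0494), a call lost in every fit that left out 1 library. Both were lower in all 3 KO WD libraries than in any chow-fed wild type. Cyp2f2 was called in 2 of the 6 fits that left out 1 library. The protease Prtn3, called in 1 of them, fell by 1.8 (SE 0.37, 0.0311), with 9.18% of its exonic bases shared with its neighbour Plppr3 on the opposite strand. Plppr3, a phospholipid phosphatase-related membrane protein, fell from 5.53, 5.33 and 4.62 to 2.07, 1.86 and 1.68 FPKM (-1.10 ± 0.10, 0.00739), called in all 6 fits that left out 1 library. So was Smkr-ps (-1.24 ± 0.13, 0.00739). Other large falls were Gnal, a stimulatory G protein subunit (-1.55 ± 0.27, 0.0186), Acsm5 (-1.31 ± 0.27), the sulfotransferase Chst1 (-1.27 ± 0.22), the amino acid carrier Slc43a1 (-1.18 ± 0.25), the metal-binding Mt1 (-1.14 ± 0.25), the sialyltransferase St3gal4 (-1.11 ± 0.20) and the sulfurtransferase Tst (-1.04 ± 0.25, 0.0495). Of the 6 fits that left out 1 library, Gnal and St3gal4 were called in 3 and Chst1 in 2. Acsm5, Slc43a1 and Mt1 were called in 1 of these fits and Tst in 0.

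Of 17 genes tested on the circadian clock list, 1 was called, and the median of -0.68 was the lowest of the 27 lists. Per3 stood at -1.52 ± 0.44 (adjusted p = 0.0938), Per2 at -1.41 ± 0.49 (0.154), Tef at -1.23 ± 0.37 (0.107) and Dbp at -1.20 ± 0.64 (0.365), while Arntl, which peaks opposite to them, stood at 0.75 ± 0.38 (0.334). In Dbp the replicates of 1 group differed widely, 20.5, 24.2 and 54.1 FPKM in WT chow and 8.51, 34.4 and 6.33 in KO WD. The labels give no hour of collection.

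Immune and matrix genes showed few or no calls and stress genes some, beside 3.51% called over all genes tested. At that share, 0 calls in a list of 18 to 39 genes says little about its members. Of 20 macrophage genes, 25 of inflammation, 20 of the interferon response, 39 of the extracellular matrix, 18 of fat expansion, 20 of branched-chain amino acid breakdown and 20 of the cell cycle, 0 were called by limma, with medians of 0.12, -0.10, 0.12, 0.23, 0.18, 0.22 and 0.12. C1qa of resident macrophages had 118, 100.2 and 87.7 FPKM against 108, 124 and 118 (0.20 ± 0.20, adjusted p = 0.643). Of 19 genes of lipid-associated macrophages, Fabp5 alone rose, and Spp1 stood at 1.68 ± 0.71 (0.246). On the list of the integrated stress and unfolded protein responses, 3 of 22 rose: the mitochondrial protease Lonp1 (1.09 ± 0.23, 0.0344), the mitochondrial chaperone Hspd1 (0.93 ± 0.21, 0.0402) and the endoplasmic reticulum cochaperone Dnajb9 (0.44 ± 0.10, 0.0430). Xbp1, a transcription factor of the same response, fell from 59.3, 67.3 and 63.9 to 42.3, 42.9 and 38.6 FPKM (-0.61 ± 0.09, 0.0113). Fgf21, a hormone induced by mitochondrial stress and in thermogenic fat, stood at 1.47 ± 0.43 (0.0938) and Atf4 at 0.09 ± 0.17 (0.823). Of 17 antioxidant genes, mitochondrial Sod2 (1.01 ± 0.18, 0.0187) and Srxn1 (0.89 ± 0.20, 0.0394) rose. Of 19 genes of mitochondrial biogenesis and dynamics, the mitochondrial RNA polymerase Polrmt (0.50 ± 0.08, 0.0161) and the fission factor Mff (0.29 ± 0.07, 0.0494) rose. Few of these calls were kept in the 6 fits that left out 1 library: Lonp1, Hspd1, Dnajb9 and Srxn1 were called in 1, Sod2 and Polrmt in 2, Mff in 0 and Xbp1 in 5. The 3 rises on the stress list were 0 in each of these fits except the one without KO WD replicate 3, which gave 5.

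The other iWAT groups place these differences. They share libraries with the main comparison, so their values are given side by side and no overlap was taken. Western diet in wild type fat alone called 312 genes (2.12%) against WT chow, and KO WD against WT WD called 624 (4.25%). The median of the thermogenic list was 0.01 for WT WD over WT chow, 0.92 for KO chow over WT chow and 2.02 for KO WD over WT WD. For the TCA list these medians were -0.02, 0.56 and 1.03, for beta-oxidation -0.01, 0.47 and 1.05, and for complex I -0.07, 0.41 and 0.70. For de novo lipogenesis they were -0.71, 0.48 and 1.28. For KO WD over KO chow the medians were 0.80 for the thermogenic, 0.37 for the TCA, 0.53 for the beta-oxidation and 0.23 for the complex I list. These list medians carry no test. Even Plin5 had a limma adjusted p of 0.410 for KO chow over WT chow and 0.409 for KO WD over KO chow. Markers of other tissues differed in WT WD as well: the 15 skeletal muscle markers summed to 180.1 to 4752 FPKM and the 6 red cell markers to 1800 to 7727 FPKM there, against 691 to 1805 FPKM for red cell markers in KO WD and 959 to 1402 FPKM in WT chow. Their part in the differences from WT WD was not tested. Ucp1 stood at 158, 89.8 and 92.6 FPKM in KO chow and at 27.5, 28.0 and 0.168 in WT WD, so that 1 wild type on Western diet was at the chow level and the other 2 were not. The change of Ucp1 was 5.30 for KO WD over WT WD (adjusted p = 0.0311), 6.53 for KO chow over WT chow (0.410) and 3.04 for WT WD over WT chow (0.166). A test of whether the genotype difference itself differed between the diets called 0 genes by limma (1011 at an unadjusted p under 0.05, smallest adjusted p 0.0610).

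Several diet-responsive genes lay between the 2 wild type groups in knockout fat on Western diet. Cyp2e1 stood at 13.3, 70.3 and 32.8 FPKM in WT WD, a change of -4.73 from WT chow (adjusted p = 0.00519), and KO WD exceeded WT WD by 2.78 (0.0209). For Tst these changes were -2.48 (0.00519) and 1.44 (0.0217). On the list of fat expansion and progenitor genes, the 18 tested had medians of 0.18 for KO WD and 0.40 for WT WD over WT chow, and of -0.31 for KO WD over WT WD, and 12 of 18 lay above 0 in KO WD over WT chow. Of its members, Peg3, an imprinted regulator, had 1.86, 3.86 and 1.26 FPKM in WT chow, 21.9, 25.0 and 41.4 in WT WD and 11.4, 4.12 and 5.36 in KO WD. Its change was 3.22 (0.0108) for WT WD and 1.23 ± 0.39 (0.125) for KO WD over WT chow, and KO WD against WT WD stood at -1.99 (0.0272). The oxytocin receptor Oxtr had 2.08, 2.10 and 1.43 FPKM in WT chow, 10.9, 19.6 and 20.9 in WT WD and 1.93, 3.53 and 5.0 in KO WD, and its KO WD change over WT chow was 0.59 ± 0.35 (0.420). Mest, a gene that tracks adipocyte enlargement, stood at 1.36, 13.7 and 2.05 FPKM, 132, 116 and 120.3 FPKM and 24.7, 32.3 and 94.9 FPKM in the same 3 groups, a change of 3.20 ± 1.02 (0.121) for KO WD and 4.71 (0.0477) for WT WD. Nnat, another imprinted gene of the list, stood at -0.72 ± 0.37 (0.340) for KO WD over WT chow, and its libraries overlapped between these groups.

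A further set was called against chow-fed wild type fat in both Western diet groups. The lipase gene Lipf had 0.188, 0.188 and 0.137 FPKM in WT chow, 6.45, 6.91 and 8.61 in WT WD and 3.20, 5.63 and 12.6 in KO WD, a change of 2.63 ± 0.39 (adjusted p = 0.0127) for KO WD and 2.82 (0.0136) for WT WD. The difference of KO WD from WT WD was -0.19 (0.845), with a 95% confidence interval of -1.06 to 0.67. Fdft1 (-1.06 and -0.98) and St3gal4 (-1.11 and -1.27) fell in both, and Xbp1 did so by 0.61 and 0.49 (-0.61 and -0.49). In contrast, Pdk4, Hadhb, Idh3a and Plin5 stood at 0.59, 0.22, 0.44 and 0.47 in WT WD over WT chow, and KO WD exceeded WT WD by 2.61, 1.69, 1.10 and 2.29 (adjusted p = 0.0235, 0.0217, 0.0208 and 0.0131).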

How the data were processed

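RNA of iWAT was captured on poly-T beads and sequenced from both ends, per the labels. HISAT2 2.0.5, DESeq2 1.20.0 and mm10 appear, with no role, in the submitters' processing notes. For the read counter and strandedness, the sources used here give nothing. The authors deposited FPKM for 54532 genes, with gene length in bases beside them, per the file headers. The authors' comparison tables hold read counts, per the file headers; 68 other per-library or group columns were not used. FPKM times gene length and 1 constant per library gave whole reads within 0.01 for all 285923 values above 0 (100%), and 23958 of 23958 deposited counts compared were equal. That constant put the effective library at 1.24 to 1.60 times the recovered reads, so the authors' FPKM already carry a scaling factor per library.

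Genes with a mean of at least 0.5 FPKM over the 12 iWAT libraries were tested with limma 3.58.1 (trend, robust prior, R 4.3.3) on log2(FPKM + 1), all 4 groups in 1 model, adjusted by Benjamini and Hochberg over all 14685 genes, and called at an adjusted p under 0.05. Errors after ± in the text are standard errors of the log2 fold change. The pipeline was tested on simulated data. edgeR 4.0.16 and DESeq2 1.42.0 on recovered reads, another pseudocount, other filters and scalings, library weights, a replicate block and leaving out each library were tried as alternatives. Equal replicate numbers did not pair the libraries. Members, lists and tests were chosen with earlier results of these data known. By rule, the text names Mrs2, the 15 genes that rose most and the 15 that fell most, among called genes whose groups did not overlap and whose higher group reached 3 FPKM, and the 4 members of each of 27 pathway lists with the smallest p; 2 genes that the rule or a list would name are not reported here; further members are given where a list's account needs them. Of 687 listed genes 685 were matched by symbol. Tables were joined with pandas 2.3.3 and numpy 2.4.6 under Python 3.11.15, and drawn with matplotlib 3.10.9. Exon overlaps come from GENCODE vM21, in which 98.3% of 54409 shared identifiers had the deposited coordinates. Besides the genes marked in the text, other named genes share exonic bases with the opposite strand, among them Mest (23.1%), St3gal4 (14.1%), Cox5a (12.8%) and Hmgcs1 (12.1%). Without knowledge of strandedness, reads from overlapping genes on opposite strands cannot be assigned.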

Additional observations from a re-analysis of the deposited data

How the results depend on the processing

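The number of called genes, 516 as reported, was 506 with a pseudocount of 0.1, 221 without a filter on low values, 512 with a mean FPKM of at least 5, 7 with only the 6 libraries compared, 495 with median-of-ratios scaling, 427 with quantile normalization, 575 by edgeR, 1394 by DESeq2 and 877 with library weights. The share of higher genes was 81.6% as reported, 70.4% by DESeq2 and 100% of the 7. Leaving out 1 library gave 43 to 615 calls, the lowest without KO WD replicate 1 and the highest without KO WD replicate 3. Chosen after seeing the data, the fit without WT chow replicate 3 and KO WD replicate 2 gave 0, and the covariate fit 449. Of the 68 named genes that were called, 0 changed sign in any of these settings. The settings refit the libraries from which these genes were chosen, so a kept sign is no test of them. Without KO WD replicate 1, 58 of the 68 lost their call, and without WT chow replicate 3 and KO WD replicate 2 all 68 did. Sign changed for 3 uncalled genes: the log2 fold change of Adipor2 was -0.00914 and the log2 fold change of C1qa -0.0787 under quantile normalization, and the log2 fold change of Isg15 was -0.0730 without those 2 libraries. The cause of these shifts was not tested. A replicate block gave 629 calls, but equal numbers did not pair the libraries. Residuals of equal numbers correlated at 0.01, -0.18 and -0.34 across genes, and no library of either group correlated best with its own number. The 3 libraries per group limit the precision, and for low genes such as Ucp1 in WT chow (1, 3 and 21 reads) so does depth. In all, 37 genes were called in every fit that left out 1 library.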

Other observations

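Beyond the lists, some other gene families, mitochondrial and other, had members called higher in KO WD against WT chow. They were chosen after their values were seen and carry no test of their own. All 77 mitochondrial ribosomal proteins lay above 0 and 22 were called higher, among them Mrpl34 (0.81) and Mrps2 (0.78), with a median log2 fold change of 0.34. Of 78 cytosolic ribosomal proteins 0 were called and 70 lay below 0, with a median of -0.27, and over all genes tested the median was -0.02. Coenzyme Q synthesis had 4 of 11 called higher (Coq3, Coq6, Coq7 and Coq9), import by the TIM and TOM complexes 5 of 22 (Timm10 at 1.01), SLC25 carriers 6 of 39 (Slc25a34 at 2.71), mitochondrial transfer RNAs 6 of 17 and proteasome subunits 5 of 38 (Psmd8 at 0.79). Subunits of the vacuolar ATPase had 3 of 17 called higher, acyl-CoA thioesterases 2 of 8 and heat shock protein 70 genes 2 of 12. Peroxins had 1 of 16, collagens 1 of 24 and keratins 1 of 7. Of 8 NDUFAF assembly factors of complex I 0 were called, though all 8 lay above 0 (median 0.36). None of the families named above had a member called lower. Over all genes tested, 2.87% were called higher and 0.647% lower, so counts of 0 or 1 in families this small say little. Cytochrome P450 family 2 had 1 of 8 called higher and 2 lower. Of 15 glutathione transferases 0 were called and 12 lay below 0.

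Single genes outside the lists also stood apart, again chosen after their values were seen. Chchd10, a mitochondrial protein of the intermembrane space, had 11.3, 18.1 and 18.7 FPKM in WT chow and 112, 106 and 45.4 in KO WD (2.31 ± 0.35, limma adjusted p = 0.0135). Clstn3, whose locus makes a form that acts on lipid droplets of brown fat, had 12, 6.45 and 7.77 FPKM against 28.1, 31.1 and 29.1 (1.68 ± 0.25, 0.0130). S100b, which Clstn3 is known to help secrete in thermogenic fat and which Schwann cells also express, had 2.20, 2.26 and 1.30 FPKM against 14.1, 19.3 and 15.1 (2.56 ± 0.36, 0.0109), and the summed level of 8 nerve and Schwann cell markers, S100b included, was 75.1 to 88.3 FPKM in WT chow and 81.8 to 202 in KO WD. The amino acid carrier Slc36a2, abundant in brown fat, had 42.7, 48.0 and 39.1 FPKM against 102, 91.1 and 97.7 (1.15 ± 0.14, 0.00739). Pank1, which makes coenzyme A, rose by 1.78 ± 0.38 (0.0354).

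Some genes were called against WT chow in both Western diet groups. Tnfrsf12a, a cytokine receptor, rose by 1.84 ± 0.30 (limma adjusted p = 0.0161) in KO WD and by 1.79 (0.0215) in WT WD. Fgf1, a growth factor needed for fat remodelling on rich diets, had 2.52, 3.84 and 2.53 FPKM in WT chow and 7.71, 8.58 and 10.2 in KO WD (1.32 ± 0.25, 0.0222), and 1.71 (0.0143) was its change in WT WD. The hairpin gene Mir335, which lies within Mest, was listed at 0 in all 3 WT chow libraries and at 3.71, 2.49 and 3.57 FPKM in KO WD. These KO WD values stand for 7, 5 and 8 reads on a gene of 98 bases, and reads of such libraries do not measure the mature miRNA.

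The genes called in the full model and in all 6 fits that left out 1 library numbered 37. They include Plin5, Otop1, Kcnk3, Gk, Idh3a, Mpc2, Letm1, Slc36a2, S100b, Hsd17b12, an enzyme of fatty acid elongation (1.19 ± 0.14, limma adjusted p = 0.00739), and the falls Plppr3 and Smkr-ps.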
